A study of Mus musculus with 6 samples.

Results

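The genes described here build and run the lysosome, the acidic compartment in which cells break down proteins, sugars and lipids. They comprise the vacuolar proton pump, the chloride exchangers that balance its charge, the hydrolases of the lumen, membrane and lipid transport proteins, and the transcription factors Tfeb and Tfe3. Of 49 genes named, 48 were found as the single gene symbol of at least 1 probe set in the platform annotation, among 23152 genes found that way. Atp6v0c, the proteolipid of the pump's membrane ring, had no probe set of that kind and was not analysed here. The 48 genes were read by 672 probe sets, with 2 to 25 per gene, and all 48 passed the filter on low values.

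The arrays were hybridised with RNA of regulatory T cells (Tregs), sorted as CD4-positive cells with high CD25 taken from spleens of 45-week-old male mice. The compared groups were 3 DJ-1-/- mice (KO), which lack the protein encoded by Park7, and 3 DJ-1+/+ littermates (WT), with 1 array per mouse and no treatment in either group. The labels used here state neither the strain nor how the knockout allele was built. The series title places the question in Treg homeostasis during ageing.

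A lysosome is acidified by a rotary pump with a membrane-embedded V0 sector, which conducts protons, and a cytosolic V1 sector, which hydrolyses ATP. Exchangers of the CLC family bring in chloride as protons accumulate, and the low pH activates cathepsins and other acid hydrolases. Tfeb and Tfe3 bind the E-box CACGTG in promoters of many of these genes, and in T cells the same compartment processes antigen, degrades surface receptors and serves as the platform for mTORC1.

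Values are log2(intensity + 16) of the median probe set of a gene, so differences of dim genes are understated, and all differences are KO minus WT. Park7 checked the labels, with means ± SD (n = 3 each) of 9.48 ± 0.21 in WT and 5.91 ± 0.18 in KO, the latter at the filter floor of 5.90. All 7 Treg markers were well above that floor and none passed, with Foxp3 at 12.66 in WT and 12.73 in KO. Every KO array was above every WT array for Foxp3. The other 6 were below 0, Cd3e (-0.19) and Ikzf2 (-0.20) with groups apart, while Il2ra (-0.0013) and Ctla4 (-0.0050) were close to 0. The list's summed intensity was 31946 to 32281 in WT and 29940 to 31264 in KO. KO replicate 1 stood apart, since it had the lowest median intensity (88.6 against 95.3 to 100.2) and correlated least with the other arrays on average (0.951 against 0.957 to 0.964). It was the lowest of the 6 arrays for 27 of the 48 genes (56.2%) and for 38.2% of all 13891 genes tested, so values without it are given where they bear on a result. Precision is limited by there being 3 arrays a group.

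In KO Tregs 1 of the 48 genes fell and 1 rose. Atp6v0d2, a subunit of the V0 sector, fell by 1.80 log2 units, and the late endosomal chloride-proton exchanger Clcn6 rose by 0.97. At a limma adjusted p of 0.05 over all genes tested, 0.266% of genes were called lower and 0.0072% higher, against 2.08% of the members in each direction. Both genes had already been seen to pass when the members were chosen. The remaining 46 did not pass, and most lay slightly below WT.

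Of the 48 members, 39 had a difference below 0 (81.2%), where 59.7% of all genes tested did. Without KO replicate 1 these counts were 33 of the 48 members and 7185 of the 13891 genes. The median difference was -0.15 over the members and -0.052 over all genes, and -0.11 and -0.0082 without KO replicate 1. Taken array by array against the WT mean of each gene, the members' median was -0.27 in KO replicate 1, -0.061 in KO replicate 2 and -0.12 in KO replicate 3. The 3 WT arrays gave -0.054, 0.048 and -0.018, so KO replicate 2 lay close to the WT range. Over all genes the same 3 KO values were -0.12, 0.00018 and -0.013. The groups did not overlap for 9 members that were lower in KO (18.8%, against 11.3% of all genes) and for 1 that was higher (2.08%, against 6.1%).

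**Figure D1:**
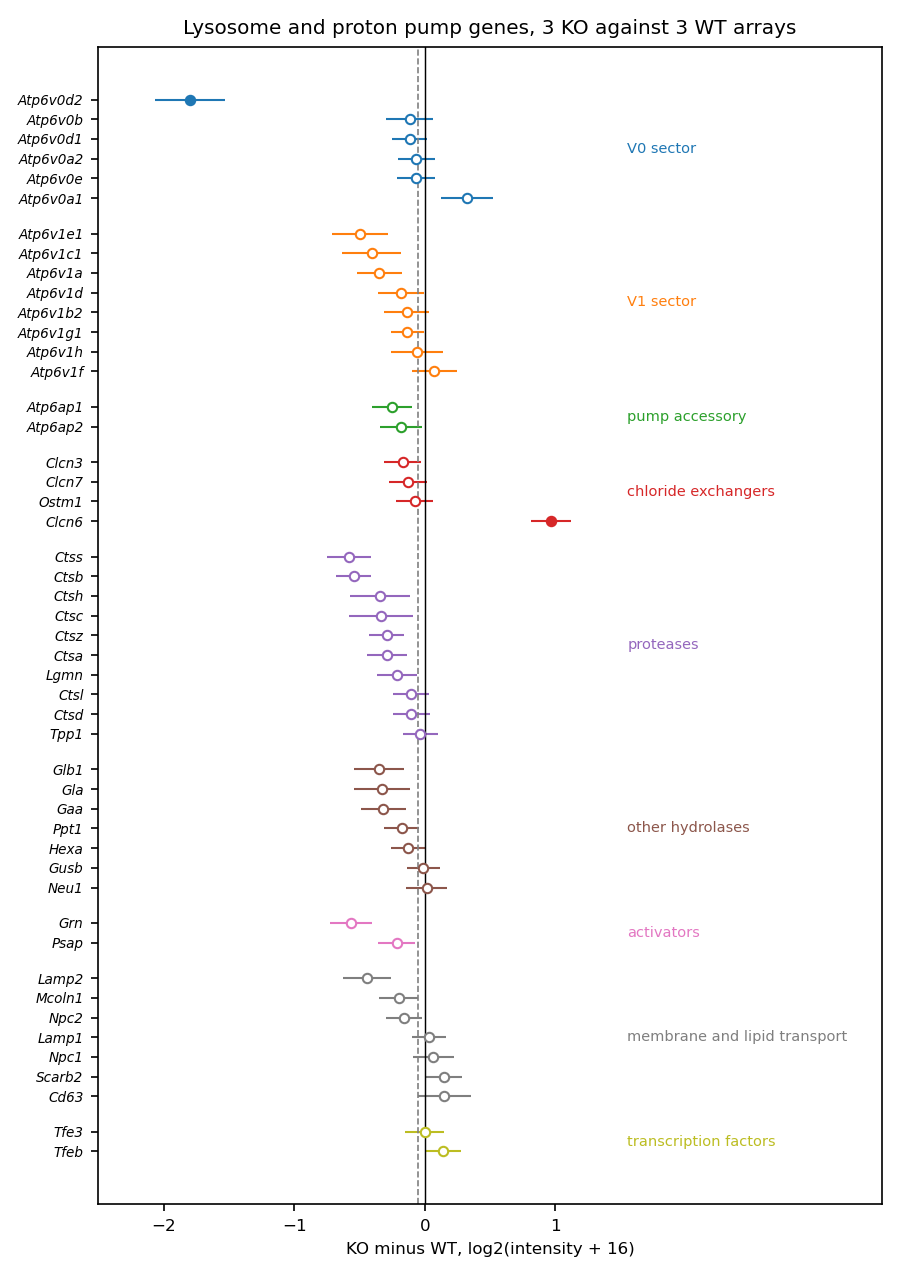
Difference between KO and WT for each of the 48 genes, in log2(intensity + 16), ordered within 9 role groups; bars are the standard error from limma, filled points passed an adjusted p of 0.05 and the dashed line is the median of all genes tested (-0.052). Atp6v0d2 lies far to the left (-1.80) and Clcn6 far to the right (0.97), while all 10 proteases lie below 0.

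**Figure D2:**
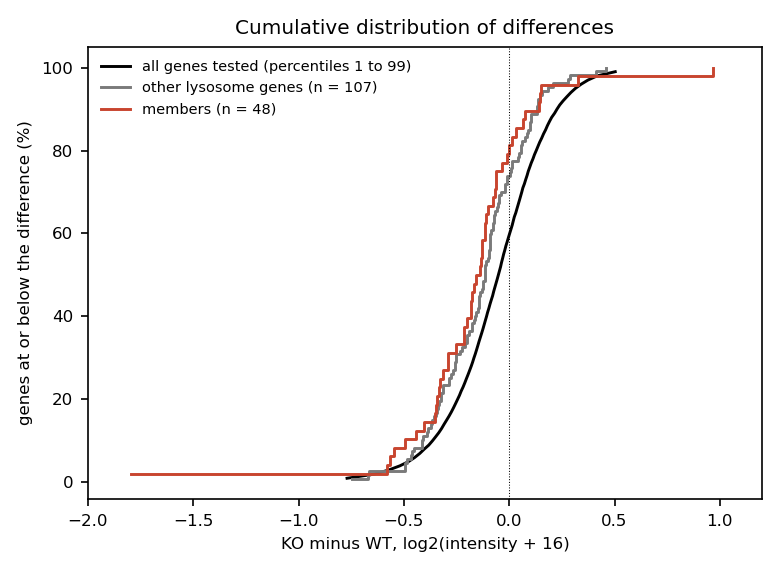
Cumulative share of genes (percent) at or below each difference between KO and WT, for the 48 members, 107 other lysosome genes and all 13891 genes tested (drawn from the 1st to the 99th percentile). The curve of the members lies left of that of all genes over most of the range, with medians of -0.15 and -0.052, and its long steps at the ends are Atp6v0d2 and Clcn6.

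Within the V0 sector Atp6v0d2 was the 1 gene of 6 that passed. Its product, subunit d2, takes the place of the ubiquitous subunit d1 between the membrane ring and the rotor stalk in osteoclasts and some macrophages. Atp6v0d2 was at 8.12, 8.79 and 8.40 in WT replicates 1 to 3 and at 6.02, 6.99 and 6.92 in KO replicates 1 to 3. Every KO array lay below every WT array, and KO replicate 1 was close to the floor of 5.90. The means were 8.44 ± 0.34 and 6.64 ± 0.54 (SD, n = 3 each), a difference of -1.80 (SE 0.27, 95% interval -2.40 to -1.20, limma adjusted p = 0.0318). The difference was -1.49 without KO replicate 1 (adjusted p = 0.0334), and the adjusted p was above 0.05 without any 1 WT array or without KO replicate 3 (0.0864 to 0.151).

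All 12 probe sets of Atp6v0d2 were lower in KO. In 9 of the 12 the groups did not overlap, where 7.64% of all probe sets showed that in this direction. The brightest, 17423581, had intensities of 769.9, 893.9 and 1175 in WT and 197.7, 217.6 and 242.9 in KO, which is -2.01 on the log2 scale. Differences ranged from -2.30 to -0.082, and the 4 probe sets with the highest identifiers were dim in all arrays, with intensities of at most 131.8. Over all members, 442 of the 672 probe sets were below 0, against 53% of all probe sets. At an unadjusted p of 0.05 limma gave 66 lower and 22 higher, against 4.37% and 3.23%. Shares of all probe sets, here and below, include dim ones, since no filter was applied to them, while every member passed the filter. No probe set of a member passed the adjusted threshold when all 269751 were tested one by one, where 0.00111% did.

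The paralog Atp6v0d1 did not pass. Its values were 9.85, 9.93 and 10.001 in WT and 9.72, 9.91 and 9.80 in KO, which overlap. The difference was -0.12 (95% interval -0.41 to 0.18, adjusted p = 0.785). Relative to Atp6v0d1 in the same array, Atp6v0d2 differed by -1.68 between KO and WT. This is a description, since Atp6v0d2 was known to differ. An exact permutation test gave p = 0.1, the smallest possible with 3 against 3 arrays, and so cannot decide.

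None of the other V0 genes passed. Atp6v0a1, one of the proton-conducting a subunits, had the only positive difference in the sector (0.33, adjusted p = 0.606, and 0.56 without KO replicate 1). It was at 7.05, 7.07 and 7.20 in WT and 6.97, 7.72 and 7.62 in KO, so KO replicates 2 and 3 were above all WT arrays and KO replicate 1 below them. Atp6v0a2, Atp6v0b and Atp6v0e differed by -0.066, -0.12 and -0.065, and each was above 0 without KO replicate 1. The median of the 6 V0 genes was -0.092, and 0.038 without that array.

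None of the 8 genes of the V1 sector passed, and 7 had negative differences with a median of -0.16. Atp6v1e1, part of the peripheral stalks that hold the catalytic head, was at 9.16, 9.39 and 9.20 in WT and 8.24, 8.96 and 9.06 in KO. The groups did not overlap, with KO replicate 1 lying 0.72 below the next array (difference -0.50, SE 0.21, adjusted p = 0.447, and -0.24 without KO replicate 1). Atp6v1c1, a subunit that links the head to the membrane sector, was at 9.05, 9.33 and 9.35 against 8.32, 9.25 and 8.96 (-0.41, adjusted p = 0.578, and -0.15 without KO replicate 1). Atp6v1a, the catalytic subunit, was at 8.26, 8.40 and 8.44 against 7.77, 8.36 and 7.93 (-0.35, adjusted p = 0.532, and -0.22 without KO replicate 1). In all 3 genes KO replicate 1 was the lowest array. Without it 5 of the 8 remained below 0, with a median of -0.091. Atp6v1g1 (-0.13) was the other gene of the sector with groups apart. Atp6v1f (0.074), with 2 probe sets, was the 1 member of the sector above 0.

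The accessory subunits, which guide assembly of the pump, were slightly lower. Atp6ap1 was at 10.14, 10.11 and 10.27 in WT and 9.72, 9.90 and 10.14 in KO (-0.25, adjusted p = 0.598, and -0.15 without KO replicate 1). Atp6ap2, also known as the prorenin receptor, was at 9.55, 9.55 and 9.45 against 9.24, 9.63 and 9.13 (-0.18, adjusted p = 0.716, but -0.33 without KO replicate 2 and -0.083 without KO replicate 3). The groups overlapped for both genes. Over the 16 pump genes, 14 differences were below 0, but 9 without KO replicate 1.

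Among the 4 genes of the chloride exchangers, Clcn6 rose and the other 3 lay slightly below WT. Clcn6 was at 7.78, 7.75 and 7.91 in WT replicates 1 to 3 and at 8.60, 8.74 and 9.01 in KO replicates 1 to 3. Every KO array lay above every WT array by more than the spread within either group. The means were 7.81 ± 0.087 and 8.78 ± 0.21 (SD, n = 3 each), a difference of 0.97 (SE 0.15, 95% interval 0.63 to 1.31, limma adjusted p = 0.0370). Without KO replicate 1 the difference was 1.06 (adjusted p = 0.0359), and without any other single array it lay between 0.85 and 1.02 with an adjusted p of 0.0797 to 0.239.

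All 19 probe sets of Clcn6 were higher in KO, by 0.13 to 1.60, and 13 of them did not overlap between groups, against 6.17% of all probe sets. Probe set 17432876 was at 159.8, 206.8 and 225.1 in WT and 746.5, 608.3 and 535.1 in KO, the widest difference in the gene. Atp6v1f, with its 2 probe sets, was the only other member whose probe sets all lay above 0. Clcn6 lies on chromosome 4 and is the 1 member within 10 Mb of Park7, the gene knocked out, in the RefSeq table of GRCm38.p6. That window held 165 genes tested, with Clcn6 included and Park7 left out. Of these, 5 were called lower (3.03%, against 0.266% of all genes) and 1 higher (0.606%, against 0.0072%). The groups did not overlap for 27 that were lower (16.4%, against 11.3%) and 18 that were higher (10.9%, against 6.1%). The 1 called higher is Clcn6 itself, and the part of the neighbourhood in its difference was not tested. Atp6v0d2 lies on the same chromosome outside the window, as do 3 other members.

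None of the remaining chloride genes passed. Clcn7, the lysosomal exchanger proper, was at 8.11, 8.24 and 7.88 in WT and 7.91, 8.003 and 7.93 in KO (-0.13, 95% interval -0.45 to 0.19, adjusted p = 0.784). Clcn3, an exchanger of endosomes, was at 7.57, 7.73 and 7.77 against 7.38, 7.66 and 7.53 (-0.17, 95% interval -0.48 to 0.15, adjusted p = 0.709, and -0.094 without KO replicate 1). Ostm1, the partner protein that stabilises the Clcn7 exchanger, differed by -0.076. The groups overlapped for all 3, and the upper ends of the intervals of Clcn7 and Clcn3 lay below the lower end of that of Clcn6.

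**Figure D3:**
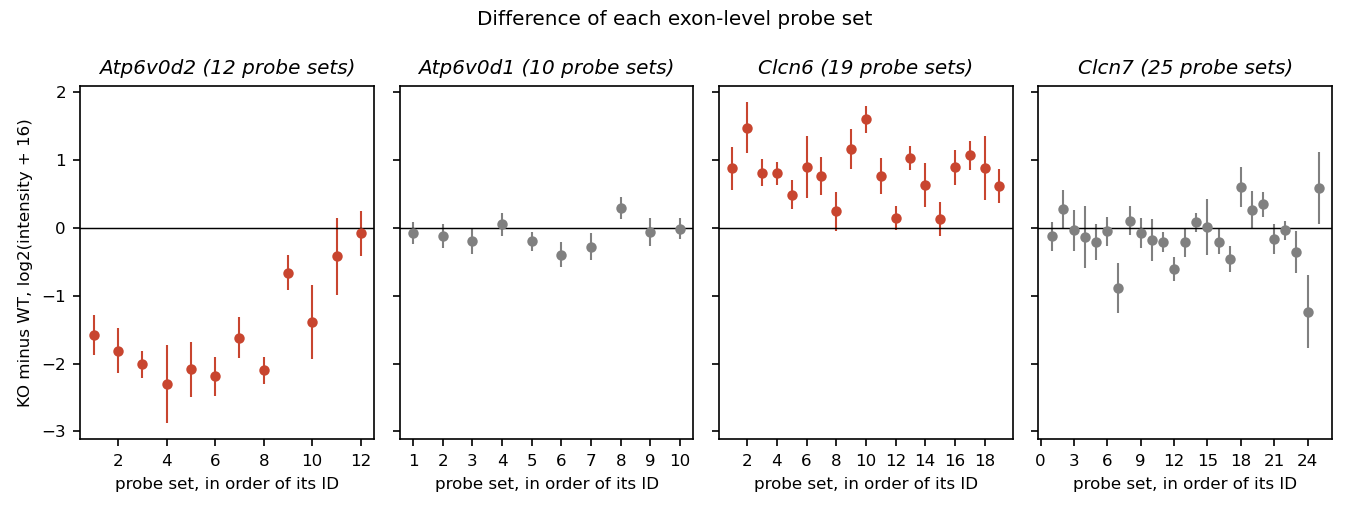
Difference between KO and WT of every exon-level probe set, in log2(intensity + 16), against its order by identifier, for Atp6v0d2, Atp6v0d1, Clcn6 and Clcn7; bars are the standard error from limma. All 12 probe sets of Atp6v0d2 lie below 0 and all 19 of Clcn6 above 0, while those of Atp6v0d1 (8 of 10 below 0) and Clcn7 (17 of 25) lie on both sides.

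The promoters of several members carry the E-box through which Tfeb and Tfe3 are known to act, and these are shown because Clcn6 is among them. The sequences are from RefSeq (GRCm38.p6), read 5′ to 3′ on the gene's strand, end at or before the base preceding the start site, and have CACGTG in capitals. The Clcn6 sequence covers the 250 bases before the start site, chr4:148038814-148039063 on the minus strand, and holds 2 E-boxes. The others are short stretches of Clcn7 (chr17:25133346-25133390, plus), Atp6v0b (chr4:117887330-117887389, minus), Atp6v1a (chr16:44139360-44139419, minus), Ctsd (chr7:142387898-142387947, minus), Ctsa (chr2:164833733-164833772, plus) and Gla (chrX:134601181-134601255, minus).
Clcn6: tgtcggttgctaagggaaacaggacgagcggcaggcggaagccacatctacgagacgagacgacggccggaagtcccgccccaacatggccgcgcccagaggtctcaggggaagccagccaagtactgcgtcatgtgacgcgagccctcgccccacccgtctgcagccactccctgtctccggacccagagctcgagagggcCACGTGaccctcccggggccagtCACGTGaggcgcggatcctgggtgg
Clcn7: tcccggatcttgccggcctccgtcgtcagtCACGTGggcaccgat
Atp6v0b: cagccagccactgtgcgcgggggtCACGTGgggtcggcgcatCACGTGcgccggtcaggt
Atp6v1a: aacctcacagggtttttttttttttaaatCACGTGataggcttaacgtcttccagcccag
Ctsd: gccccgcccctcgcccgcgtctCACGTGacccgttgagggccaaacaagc
Ctsa: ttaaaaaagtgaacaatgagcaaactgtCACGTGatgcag
Gla: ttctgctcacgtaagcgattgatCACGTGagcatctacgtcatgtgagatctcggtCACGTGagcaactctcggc

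Promoter windows of 250 bases before to 50 after the start site were found for 40 of the 49 named genes, and 15 of the 40 held CACGTG (37.5%), against 8.09% of all genes in the table. The other 9, Atp6v0d2 and Ctsb among them, had no window there, so their promoters were not searched. The longer palindrome TCACGTGA, which contains CACGTG, was found in 9 of the 40 (22.5%, against 1.12%), and GTCACGTG, searched on both strands and overlapping the others, in 11 (27.5%, against 2.55%). Counted by window, since some genes have several, CACGTG was in 15 of 50 (30.0%) and in 7.15% of all windows. Among genes with a window, the 15 were 3 of 5 in the V0 sector, 1 of 4 in the V1 sector and 2 of 4 chloride genes (Clcn6 and Clcn7). The rest were 4 of 8 proteases, 3 of 7 other hydrolases and 2 of 6 membrane and lipid transport genes (Lamp1 and Mcoln1). Lamp1, a major glycoprotein of the lysosomal membrane, had 4 copies within 61 bases of the start site. The members with and without the motif overlapped in their differences. The median was -0.13 over the 15 genes with CACGTG and -0.16 over the 24 tested genes whose window lacked these letters, and Clcn6 (0.97) and Clcn7 (-0.13) each held 2 copies. A match is a description of the letters and does not show binding.

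**Figure D4:**
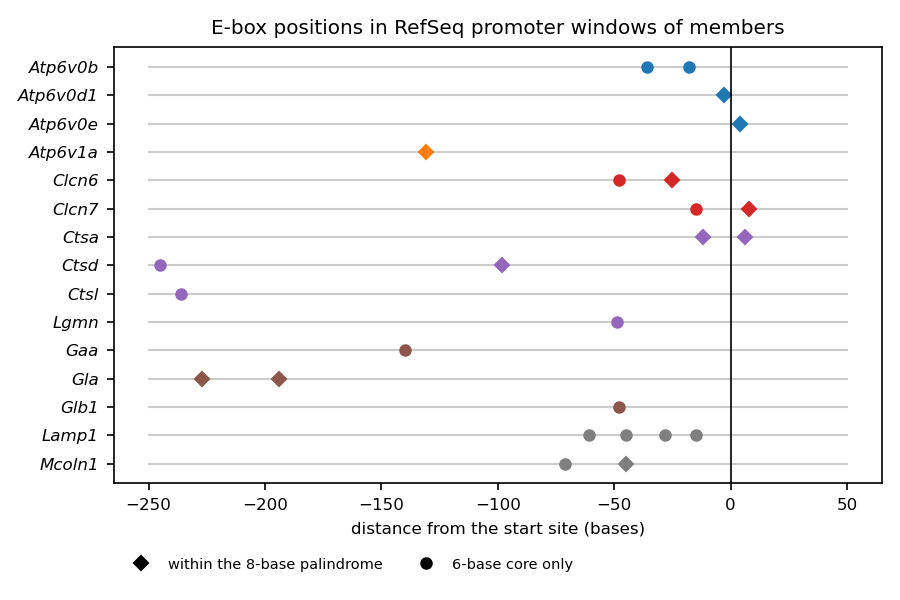
Position of each CACGTG in the promoter windows of the 15 members that hold it, as the distance in bases of its first letter from the start site, coloured by role group; diamonds mark copies inside the 8-base palindrome and grey lines span the window from 250 bases before to 50 after. A copy within 71 bases of the start site occurs in 10 of the 15 genes, and Lamp1 has 4.

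The transcription factors themselves differed little. Tfeb was at 6.25, 6.17 and 6.13 in WT and 6.14, 6.43 and 6.39 in KO (0.14, 95% interval -0.17 to 0.45, adjusted p = 0.754), with all arrays not far above the floor. Tfe3 was at 8.98, 9.27 and 8.99 against 9.24, 8.999 and 8.99 (-0.0010, 95% interval -0.34 to 0.33, adjusted p = 0.999). The groups overlapped for both. Arrays measure transcripts only, and these factors are known to be regulated through phosphorylation and entry to the nucleus.

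All 10 lysosomal proteases and their partners had differences below 0, from -0.58 to -0.036 with a median of -0.29, and none passed. The cysteine cathepsins Ctss and Ctsb were the lowest. Ctss, which trims the invariant chain of MHC class II, was at 11.20, 11.30 and 11.02 in WT and 10.29, 10.79 and 10.69 in KO (-0.58, SE 0.17, adjusted p = 0.265). Ctsb, an abundant endopeptidase, was at 11.61, 11.69 and 11.60 against 11.02, 11.21 and 11.04 (-0.55, SE 0.13, adjusted p = 0.183). Ctsz, a carboxypeptidase, was at 10.30, 10.30 and 10.32 against 10.16, 9.89 and 9.99 (-0.29, SE 0.13, adjusted p = 0.484). In these 3 genes every KO array lay below every WT array. Ctsb passed with a variance that followed the mean and was robust to outliers (adjusted p = 0.0356), and its adjusted p was otherwise 0.067 or above wherever other settings or a left-out array were tried.

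All 9 probe sets of Ctss were lower in KO with no overlap of the groups, as were 9 of the 11 of Ctsb, against 7.64% of all probe sets. The remaining proteases, Ctsa, Ctsc, Ctsd, Ctsh, Ctsl, Lgmn and Tpp1, overlapped between groups, and Ctsd, the main aspartic protease of the lysosome, differed by -0.10 and by -0.011 without KO replicate 1. Ctsc, which activates the granzymes of cytotoxic cells, differed by -0.33, with KO replicate 1 lying 0.93 below the next array, and by -0.0089 without that array. Without KO replicate 1, 9 of the 10 proteases remained below 0, with a median of -0.18.

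**Figure D5:**
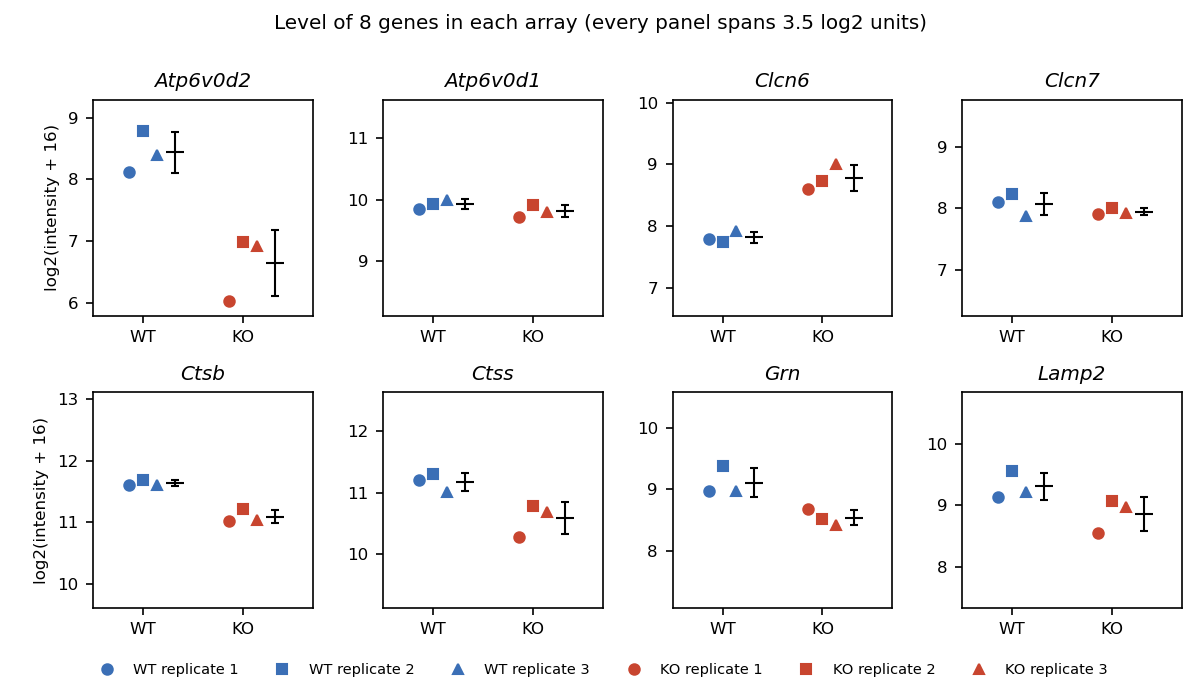
Level of 8 genes in each array, in log2(intensity + 16), with WT in blue, KO in red and 1 symbol per replicate number; black bars are mean ± SD of 3 arrays and each panel spans the same range. Groups are apart for Atp6v0d2, Clcn6, Ctsb, Ctss, Grn and Lamp2 and overlap for Atp6v0d1 and Clcn7.

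Among the 7 other hydrolases, which cleave sugars, glycolipids and fatty acyl chains, none passed, and 6 had differences below 0 (median -0.18). Glb1, the beta-galactosidase whose activity is used as a marker of senescent cells, was at 9.41, 9.49 and 9.31 in WT and 8.61, 9.33 and 9.22 in KO (-0.35, adjusted p = 0.577, and -0.13 without KO replicate 1). Gla, the alpha-galactosidase lost in Fabry disease, was at 7.94, 8.43 and 7.79 against 7.85, 7.97 and 7.37 (-0.33, adjusted p = 0.624, but -0.14 without WT replicate 2 and -0.15 without KO replicate 3). Gaa, the glycogen-degrading alpha-glucosidase, was at 8.01, 8.09 and 7.52 against 7.62, 7.59 and 7.45 (-0.32, adjusted p = 0.572, and -0.21 to -0.49 without WT replicate 2 or 3). The groups overlapped for all 3 genes. Hexa (-0.13), a subunit of beta-hexosaminidase, was the 1 gene here with groups apart, and Gusb (-0.012) and Neu1 (0.015) were nearest to 0.

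Both activators were below WT. Grn encodes progranulin, which is split in the lysosome into granulins that support hydrolase function. It was at 8.96, 9.38 and 8.98 in WT and 8.68, 8.52 and 8.42 in KO, so every KO array was below every WT array (-0.57, SE 0.16, adjusted p = 0.257). Of its 14 probe sets 13 were lower, 10 of them with no overlap (against 53% below 0 and 7.64% without overlap among all probe sets), and its difference was -0.63 without KO replicate 1. Psap, the precursor of the saposins that present lipids to hydrolases, was at 11.67, 11.82 and 11.82 against 11.37, 11.63 and 11.67 (-0.21, adjusted p = 0.634, and -0.12 without KO replicate 1), and its groups overlapped.

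The membrane and lipid transport proteins were divided, with 3 of 7 below 0 and a median of 0.030. Lamp2, a membrane glycoprotein needed for fusion with autophagosomes, was at 9.14, 9.56 and 9.22 in WT and 8.55, 9.07 and 8.97 in KO, without overlap (-0.44, SE 0.18, adjusted p = 0.425, and -0.29 without KO replicate 1). Its relative Lamp1 differed by 0.030 (95% interval -0.26 to 0.32). Mcoln1, the calcium channel TRPML1, was at 9.81, 9.86 and 10.17 against 9.60, 9.85 and 9.79 (-0.20, adjusted p = 0.676, and -0.091 without WT replicate 3). Npc2, which hands cholesterol to the membrane protein Npc1, was at 11.08, 11.19 and 11.27 against 10.87, 11.08 and 11.11 (-0.16, adjusted p = 0.721, and -0.083 without KO replicate 1). Npc1 (0.067), the glucocerebrosidase receptor Scarb2 (0.15) and the tetraspanin Cd63 (0.15, but -0.056 without KO replicate 3) lay above 0 and overlapped.

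Several of these genes are also strongly expressed by macrophages, osteoclasts and antigen-presenting cells, so the markers of those cells were read in the same arrays. Of 13 macrophage markers 8 lay under the floor, among them Adgre1, Itgam and Mertk, and the list's summed intensity was 604 to 977 in WT and 472 to 559 in KO. Of the 5 that were tested all were below 0 in KO, and Vcam1 fell (-1.15, adjusted p = 0.0343). The B cell list, which includes MHC class II genes, summed to 5656 to 6016 in WT and 3477 to 4166 in KO, with H2-Aa (-1.26) and H2-Ab1 (-1.24) called lower and Pax5 and Blk under the floor. Its largest intensity was that of the class II invariant chain Cd74 (-0.67, adjusted p = 0.117), while the B cell genes Cd79a (-0.23), Cd79b (-0.17), Cd22 (-0.030) and Fcrla (-0.095) overlapped between groups. NK cell markers summed to 364 to 435 against 314 to 355, with Gzma under the floor. Of the 4 tested none passed, and only Ncr1 (-0.85) was below 0, with groups apart. Klrb1c (0.28) was higher with groups apart, and Klrk1 (0.18) and Eomes (0.028) were above 0 and overlapped. The macrophage, B cell, NK cell and Treg sums were each lower in every KO array than in any WT array. The same held for 9 members (18.8%, against 11.3% of all genes). These were Atp6v0d2, Atp6v1e1, Atp6v1g1, Ctsb, Ctss, Ctsz, Hexa, Grn and Lamp2. The part of other cells in these differences was not tested. In bulk RNA, fewer cells of a type and less RNA per cell cannot be told apart.

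The osteoclast list summed to 2522 to 2989 in WT and 2399 to 3228 in KO, mostly from Nfatc1, which T cells also express. Calcr was under the floor, and Spp1 (-1.70, adjusted p = 0.0176) was the 1 of 6 tested genes to fall. Dcstamp, the fusion protein of osteoclasts, differed by 0.025, and Ctsk, their collagen-degrading cathepsin, by 0.41 with a KO mean not far above the floor. Dendritic cell markers summed to 293 to 365 in WT and 236 to 325 in KO, with 5 of 7 under the floor including Itgax and Flt3.

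A wider list of 122 other lysosome genes, of which 113 were found on the array and 107 were tested, gave no call in either direction by limma. At an unadjusted p of 0.05, 14 were lower (13.1%, against 7.67% of all genes) and 1 was higher (0.935%, against 2.99%), and for the 48 members these counts were 6 (12.5%) and 1 (2.08%). The groups did not overlap for 20 that were lower (18.7%, against 11.3% of all genes) and 3 that were higher (2.8%, against 6.1%). The median difference was -0.12, and -0.071 without KO replicate 1.

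The other lysosome genes with the smallest p were Mcoln2, Galns and Ctsw. Mcoln2, the TRPML2 channel of immune cells, was at 6.43 ± 0.064 in WT and 5.76 ± 0.10 in KO, the latter under the floor (-0.67, adjusted p = 0.105, and 0.035 with array weights). Galns, the sulfatase lost in Morquio syndrome, was at 8.17 ± 0.12 and 7.50 ± 0.14 (-0.67, adjusted p = 0.125). Ctsw, a cathepsin of cytotoxic lymphocytes, was at 9.77 ± 0.37 and 9.02 ± 0.18 (-0.75, adjusted p = 0.220). In all 3 every KO array lay below every WT array (SD, n = 3 each). Upward, the smallest p belonged to the folliculin partner Fnip1 (0.46, adjusted p = 0.454), the adaptor subunit Ap3d1 (0.29, adjusted p = 0.496) and Ctsk (adjusted p = 0.533). The pump's other a subunit of osteoclasts and T cells, Tcirg1, named for that role after its value was seen, differed by -0.069.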

How the data were processed

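Per the labels, the deposited values are intensities of exon-level probe sets of an Affymetrix array, Mouse Gene 2.0 ST, which the authors summarised with PLIER in Affymetrix Expression Console 1.4 (submitters' processing notes). Background correction, normalization between arrays and genome build are not given in the sources used here. Groups and replicate numbers came from sample titles. The members, gene lists and tests were chosen with earlier results of these data known.

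Intensities were transformed as log2(intensity + 16). Each gene was summarised as the median over probe sets that name it alone, and genes under the 40th percentile of mean level (5.90) were left out, which left 13891 genes. KO was compared with WT in limma 3.58.1 in R 4.3.3 with a moderated two-sided test, and p-values were adjusted over all genes tested (Benjamini-Hochberg, threshold 0.05). The fit was also run on simulated independent normal values with known differences added. No simulated array stood apart as KO replicate 1 did, so this does not test the calls in these data. Members past the threshold, Atp6v0d1 and up to 3 members per role group with the smallest p are given by array, and of the other lysosome genes those past the threshold and the 3 with the smallest p in each direction. Marker sums are intensities from gene medians less the offset. Alternatives were pseudocounts of 1 and 64, no filter or the 60th percentile, mean or bright probe sets, quantile normalization, median centring, trend and robust variance, array weights, an unmoderated test, a threshold of 0.10, a replicate block and leaving out each array.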

Additional observations from a re-analysis of the deposited data

How the results depend on the processing

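With 3 arrays a group, the calls of Atp6v0d2 and Clcn6 are near the threshold. With a pseudocount of 1 they differed by -1.99 (adjusted p = 0.0629) and 1.02 (0.0612), and in an unmoderated test by -1.80 (0.391) and 0.97 (0.282), with 0 members called in either direction under both. With no filter Clcn6 was at 0.97 (0.058), with 0 members called higher. Trend and robust variance called 2 members lower, the second being Ctsb, and array weights called 1 other lysosome gene lower, Mcoln2. Leaving out 1 array at a time gave 0 to 1 members lower and 0 to 1 higher, -1.97 to -1.49 for Atp6v0d2 and 0.85 to 1.06 for Clcn6. Leaving out WT replicates 1, 2 or 3 or KO replicate 3 ended both calls, and leaving out KO replicate 2 that of Clcn6. The calls and directions of both held in the other alternatives.

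Medians moved by more than the spread between arrays with the mean of probe sets (accessory -0.11, proteases -0.19, other hydrolases -0.26, transcription factors -0.038), with bright probe sets (activators -0.54, membrane and lipid transport -0.087, transcription factors -0.066), with quantile normalization (chloride exchangers -0.047) and with the 60th percentile filter (transcription factors -0.0010, from Tfe3 alone). Left-out arrays gave medians of -0.19 to -0.11 for all members, -0.13 to 0.038 for V0, -0.28 to -0.091 for V1, -0.29 to -0.14 for the accessory subunits, -0.12 to -0.042 for chloride exchangers, -0.31 to -0.18 for proteases, -0.23 to -0.13 for other hydrolases, -0.45 to -0.31 for activators, -0.056 to 0.083 for membrane proteins and 0.035 to 0.11 for transcription factors. Tfe3 turned to 0.050 with quantile normalization, 0.034 with median centring, and ranged from -0.084 to 0.095 with 1 array left out, above 0 without WT replicate 2, KO replicate 2 (0.039) or KO replicate 3 (0.041). The cause was not tested.

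Same-numbered arrays deviated together by correlations of 0.15, 0.17 and 0.010. The numbers were not taken to pair the mice, although so few values cannot show that they do not. Over all genes, a block for the replicate number gave 62 called lower and 5 higher, against 37 and 1 without it. With the replicate number as a block, Atp6v0d2 was at -1.80 (adjusted p = 0.00468) and Clcn6 at 0.97 (0.0297), with 1 member called in each direction.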

Other observations

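The probe sets of Lamp2 differed widely among themselves. Of its 16 probe sets 13 were lower in KO and 8 showed no overlap, against 53% and 7.64% of all probe sets, with differences from -1.66 to 0.46. Probe set 17541188 had intensities of 2413, 2653 and 2601 in WT and 1601, 1742 and 1508 in KO (-0.66), while 17541174 had 195.4, 171.7 and 167.1 against 187.3, 175.1 and 201.7 (0.073). Probe set 17541183 was at 1428 and 1310 in WT replicates 1 and 2 and at 214.1 in WT replicate 3, and 17541178 was at 5.11 in KO replicate 1 and between 357.7 and 486.8 in the other 5 arrays. These single probe sets were picked after their values were seen.

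From the wider list, a gene of the route that carries hydrolases to the lysosome and a further pump gene were also lower with groups apart. This held for 18.7% of that list and 11.3% of all genes. M6pr, the cation-dependent mannose 6-phosphate receptor, was at 11.51 ± 0.057 (SD, n = 3 each group) in WT and 11.14 ± 0.12 in KO (-0.37, limma adjusted p = 0.362). On the same route Igf2r (-0.070), Gnptab (-0.20), Gnptg (-0.25), Nagpa (0.056), Gga2 (0.10) and Gga3 (0.043) overlapped. Gga1 (0.28) was higher with groups apart. Atp6v1g2, a stalk subunit of the pump best known from neurons, was at 8.15 ± 0.13 and 7.70 ± 0.14 (-0.45, limma adjusted p = 0.298). Its paralog Atp6v1g1 differed by -0.13, also with groups apart. Neither M6pr nor Atp6v1g2 passed, and both were picked after their values were seen.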
